A study of Homo sapiens with 6 samples.

Results

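The 8 mRNAs described here encode nucleolar proteins that process ribosomal RNA or assemble ribosomes: NPM1, NCL, the box C/D proteins FBL, NOP56 and NOP58, the H/ACA proteins DKC1 and NHP2, and the GTPase GNL3. They were chosen by name, as a set in which NPM1 is a known TOP mRNA and the other 7 serve as its contrast, and were found by Ensembl ID among the 60554 gene IDs of each count file. All 8 passed the filter on low counts and were among the 10788 genes tested. RNA came from the free 40S fraction of HCT116, a human colorectal carcinoma cell line. This fraction of a sucrose gradient holds small ribosomal subunits outside assembled ribosomes. It was measured after immunoprecipitation with an anti-LARP1 antibody (LARP1 IPs, n = 2), after immunoprecipitation with normal rabbit serum IgG (IgG IPs, n = 2), which measures background, and without immunoprecipitation (Input, n = 2). The labels call the 2 libraries of a group biological replicates without saying whether they came from separate cultures, and the p-values reflect only how far these libraries differ. Epithelial markers of the line were not checked, since the files give IDs without symbols.

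A TOP mRNA begins with a C followed by an unbroken run of C and U, the terminal oligopyrimidine motif, and LARP1 is known to bind the cap together with this motif. The mRNAs of ribosomal proteins are the main TOP class, whose translation is coupled to growth signals through mTOR. Nucleolar assembly factors serve the same production line at another step: they modify, fold and cleave the ribosomal RNA that the ribosomal proteins bind. Box C/D particles guide ribose methylation and H/ACA particles guide pseudouridylation, each with a small nucleolar RNA (snoRNA) as the guide, and human snoRNAs are mostly cut from introns of host genes.

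The DNA around the annotated transcript starts is shown because the TOP motif is defined at the first transcribed base. Each window runs from 30 bases before to 20 bases from the annotated start, 5′ to 3′ on the gene's strand, from RefSeq (GRCh38.p14), and position 31 of each window is the first transcribed base. Capitals mark every run of a C followed by at least 4 bases that are C or T, including the part of such a run that a window's edge leaves.
NPM1 start 1 (chr5:171387819-171387868, plus strand): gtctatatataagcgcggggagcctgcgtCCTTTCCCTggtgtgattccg
NPM1 start 2 (chr5:171387086-171387135, plus strand): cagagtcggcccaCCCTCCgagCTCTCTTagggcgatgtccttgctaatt
FBL (chr19:39846360-39846409, minus strand): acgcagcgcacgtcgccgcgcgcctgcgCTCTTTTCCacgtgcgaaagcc
NHP2 (chr5:178153866-178153915, minus strand): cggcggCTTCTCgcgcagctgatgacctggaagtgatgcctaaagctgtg
NCL (chr2:231464465-231464514, minus strand): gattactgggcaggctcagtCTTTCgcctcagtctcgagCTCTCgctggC
NOP56 (chr20:2652602-2652651, plus strand): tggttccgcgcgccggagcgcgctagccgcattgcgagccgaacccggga
DKC1 (chrX:154762834-154762883, plus strand): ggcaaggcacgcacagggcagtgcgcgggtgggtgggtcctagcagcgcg
GNL3 start 1 (chr3:52685890-52685939, plus strand): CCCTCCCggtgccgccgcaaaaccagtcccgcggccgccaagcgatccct
GNL3 start 2 (chr3:52686002-52686051, plus strand): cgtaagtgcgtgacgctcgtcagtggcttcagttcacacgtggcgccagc

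The RefSeq table held 9 starts of 7 of the 8 genes, and the gene without a window is NOP58. A C followed by at least 4 C or T bases stood at the annotated first base of NPM1 start 1, with 8 pyrimidines in a row from that base, and of FBL, with 7. The other 7 starts did not have it. In the NPM1 window the run also took in 1 base before the start, and in the FBL window it began at -2. NPM1 start 2 had its nearest run from -8 to -2, NCL had runs that began at -10, 10 and 20, and NHP2 had its only run from -24 to -19. No such run lay in the windows of NOP56, DKC1 or GNL3 start 2, and the run of GNL3 start 1 ended at -24. Among all 35116 listed starts, 4.07% had the run at the first base, and of 83 starts of 67 ribosomal protein genes 56.6% did. Within 5 bases of the start on either side a run began at 18.6% of all starts, within 10 bases at 31.5% and within 20 bases at 49.8%, so the letters mean little away from the first base. Such a match is a description of the annotated start and does not show which start these cells used.

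**Figure D1:**
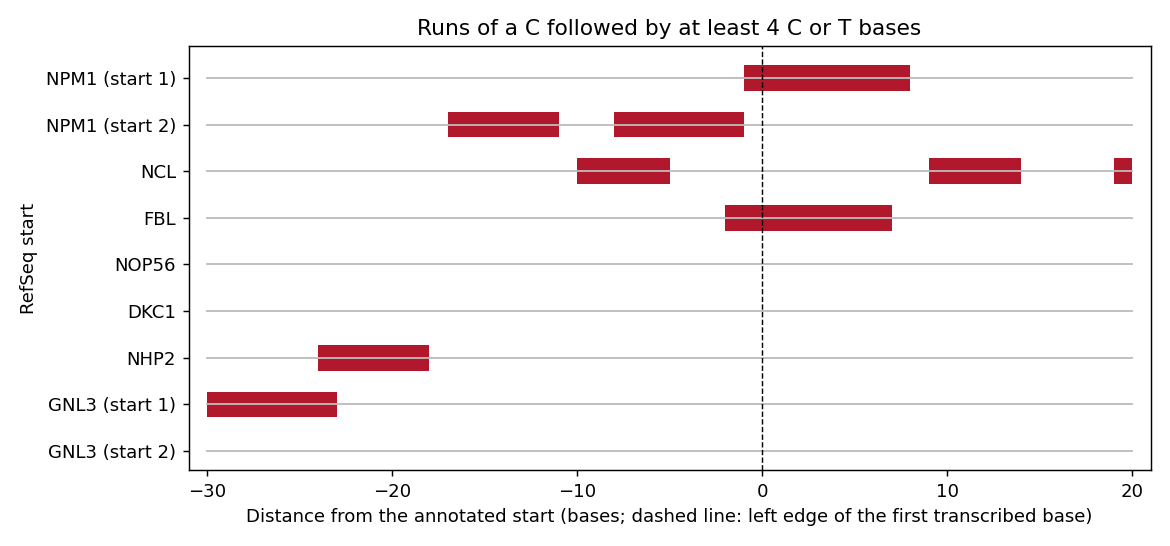
Position of each run of a C followed by at least 4 C or T bases in the 9 RefSeq start windows, against the distance from the annotated start in bases (red bars: runs; grey lines: the window). The run crosses the dashed start line in NPM1 start 1 and in FBL and in no other window.

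The LARP1 IPs totalled 5211809 and 4135463 counts, against 7356269 and 8069554 in the IgG IPs and 6632952 and 6424655 in Input. The 2 genes with the most counts took 21.3% to 26.6% of a LARP1 IP library, 70.9% to 71.5% of an IgG IP library and 87.9% to 88.6% of an Input library, so Input had the fewest counts left for the 8 mRNAs. Together the 8 had 14912 and 8142 counts in the LARP1 IPs, 10305 and 6663 in the IgG IPs, and 2312 and 1843 in Input. Levels below are CPM, the count scaled to a common library size after TMM normalization, which sets each gene against most other genes of its library. They are shares of the recovered RNA, so the absolute amount recovered is unknown, and since they are not divided by transcript length, levels of different genes are not compared.

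Against the IgG IPs, 3 of the 8 mRNAs were higher in the LARP1 IPs, namely FBL, NHP2 and NPM1, and 0 were lower. NPM1, the member chosen for its TOP motif, had the smallest fold of these 3, and FBL and NHP2, from the contrast, had larger ones. The annotated start of FBL also had the run of a C and pyrimidines at the first base, and that of NHP2 did not. FBL is thus in the contrast by the choice of the set, not by its start sequence. The share of 37.5% stands beside 8.54% of all tested genes that were higher and 2.29% that were lower in this comparison, and the choice of members leaves no test of the share. Calls came from the quasi-likelihood test of edgeR, with p-values adjusted by Benjamini-Hochberg over all tested genes and a threshold of 0.05. Without adjustment, 3 members were higher and 1, DKC1, was lower at an edgeR p under 0.05. Of all 10788 tested genes, 2713 had such a p in either direction. DESeq2 also called 3 members higher and 0 lower, beside 891 and 248 of all genes. The median log2 fold change of the 8 was -0.32, against -0.065 for all tested genes, with 3 values above 0 and 5 below. The 2 comparisons of the LARP1 IPs share its libraries, and their values are given side by side.

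**Figure D2:**
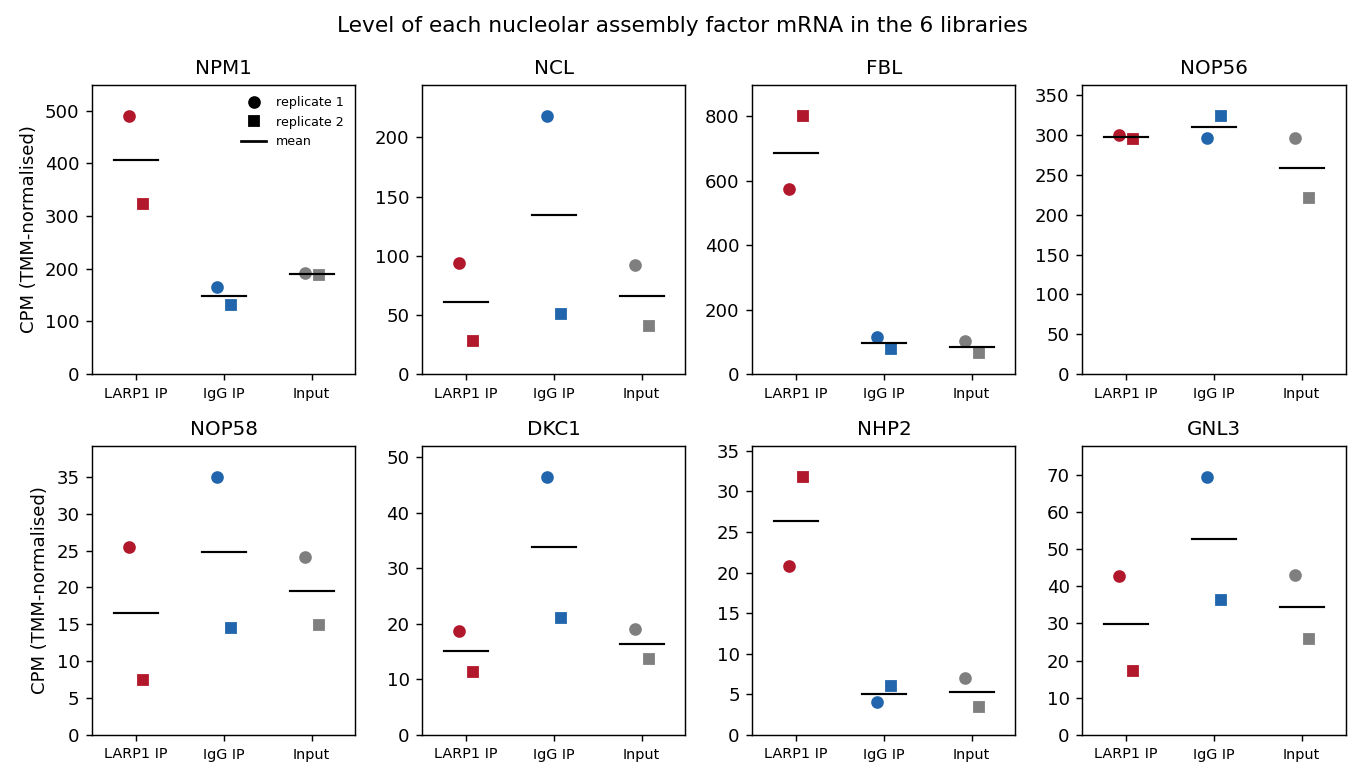
CPM of each mRNA in every library (circle: replicate 1; square: replicate 2; bar: mean of the 2), with the LARP1 IPs, the IgG IPs and Input from left to right and each vertical axis starting at 0. Both LARP1 IP libraries lie above all 4 control libraries for NPM1, FBL and NHP2.

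Box C/D particles contain FBL, the methyltransferase, with NOP56 and NOP58 as the paired scaffold proteins. FBL (ENSG00000105202.7, chromosome 19, 39834458 to 39846379) had 573 and 801 CPM in the LARP1 IPs, against 117 and 78.3 CPM in the IgG IPs and 102 and 65.2 CPM in Input. The LARP1 IP libraries lay far above all 4 control libraries, and the controls overlapped each other. Mean levels were 687 ± 161 CPM in the LARP1 IPs, 97.4 ± 27.0 CPM in the IgG IPs and 83.4 ± 25.8 CPM in Input (SD, n = 2 each). FBL was 7.05-fold higher than in the IgG IPs (log2 fold change 2.82 ± 0.44, SE; edgeR adjusted p = 0.00126). Against Input it was 8.24-fold higher (log2 fold change 3.04 ± 0.45, SE; edgeR adjusted p = 0.00123). By size of the fold change FBL ranked 339 of 10788 genes against the IgG IPs and 251 against Input. Its call against the IgG IPs held under every alternative run. Against Input edgeR lost it without Input replicate 1 (log2 fold change 3.41, edgeR adjusted p = 0.0648) and without Input replicate 2 (2.77, edgeR adjusted p = 0.0983), while DESeq2 kept it with each library left out in turn. In those 2 edgeR fits 0 of all tested genes were higher than Input, against 346 and 239 by DESeq2.

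NOP56 (ENSG00000101361.14, chromosome 20, 2652632 to 2658393) had 299.6 and 294 CPM in the LARP1 IPs, 297 and 324 CPM in the IgG IPs, and 296 and 221 CPM in Input. The LARP1 IPs overlapped both controls, and the fold changes were close to 1. The log2 fold change was -0.06 against the IgG IPs (95% interval -0.88 to 0.75, edgeR adjusted p = 0.94) and 0.20 against Input (-0.61 to 1.01, edgeR adjusted p = 0.816). NOP58 (ENSG00000055044.10, chromosome 2, 202265763 to 202303661) had 25.5 and 7.44 CPM in the LARP1 IPs, 35.0 and 14.5 CPM in the IgG IPs, and 24.2 and 14.9 CPM in Input. Its libraries differed more within a group than between groups, and neither comparison passed: the log2 fold change was -0.57 against the IgG IPs (95% interval -1.79 to 0.65, edgeR adjusted p = 0.574) and -0.23 against Input (-1.48 to 1.03, edgeR adjusted p = 0.873). The intervals of NOP56 leave out a change of the size seen for FBL, while a smaller change in either direction, within their bounds, is not excluded.

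The 2 most abundant genes took very different shares of the counts in the groups. With library sizes counted without them, which moved the median of all genes against the IgG IPs to -1.25, the log2 fold change of FBL was 1.55 (edgeR adjusted p = 0.0152), that of NHP2 1.14 (edgeR adjusted p = 0.0648) and that of NPM1 0.31 (edgeR adjusted p = 0.544). Under the same scaling 4 members were lower than in the IgG IPs, as were 4094 of the 10788 tested genes, while 355 were higher. The log2 fold changes of the 4 were -1.25 for NOP56 (edgeR adjusted p = 0.0211), -2.24 for NCL (0.0459), -2.33 for DKC1 (0.0149) and -1.92 for GNL3 (0.0323). Relative to the shifted median of all genes, NOP56 stood close to 0 under this scaling too. The ratio of 2 genes within a library does not depend on this scaling. The ratios within a complex were chosen after the values had been seen. FBL had 1.91 and 2.72 counts per NOP56 count in the LARP1 IPs, against 0.393 and 0.242 in the IgG IPs and 0.343 and 0.295 in Input. The ratio was above 1 in both LARP1 IP libraries and below 1 in every control library. It is read between groups only, since the lengths of the mRNAs enter it. The geometric mean of the ratio was 7.41-fold higher in the LARP1 IPs than in the IgG IPs and 7.17-fold higher than in Input. The ratio of NOP58 to NOP56 counts was 0.0851 and 0.0253 in the LARP1 IPs, 0.118 and 0.0447 in the IgG IPs, and 0.0815 and 0.0674 in Input, with the groups overlapping. With 2 libraries a group, the smallest two-sided p of an exact permutation test is 0.33, and these ratios are given as values only.

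H/ACA particles are built on DKC1, the pseudouridine synthase dyskerin, with NHP2 as one of its core partners. NHP2 (ENSG00000145912.8, chromosome 5, 178149463 to 178153885) had 20.8 and 31.8 CPM in the LARP1 IPs, against 4.07 and 6.05 CPM in the IgG IPs and 7.05 and 3.42 CPM in Input. Both LARP1 IP libraries lay above all 4 controls. NHP2 rested on few reads, with 198 and 171 counts in the LARP1 IPs, 44 and 61 in the IgG IPs and 21 and 11 in Input. NHP2 was 5.17-fold higher than in the IgG IPs (log2 fold change 2.37 ± 0.47, SE; edgeR adjusted p = 0.00579) and 5.02-fold higher than in Input (2.33 ± 0.50, SE; edgeR adjusted p = 0.0135). It ranked 503 and 425 of 10788 genes by fold change. Against Input edgeR lost the call without Input replicate 1 (edgeR adjusted p = 0.0866) or 2 (edgeR adjusted p = 0.259), and DESeq2 lost it without Input replicate 2 (1.82, adjusted p = 0.159) or LARP1 IP replicate 2 (1.999, adjusted p = 0.0673). RMND5B overlaps NHP2 in the RefSeq annotation, and with the strand setting of the counting not given, reads of the overlap cannot be assigned here.

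DKC1 (ENSG00000130826.15, chromosome X, 154762864 to 154777689) had 18.7 and 11.4 CPM in the LARP1 IPs, against 46.5 and 21.03 CPM in the IgG IPs and 19.1 and 13.7 CPM in Input. The LARP1 IP libraries lay below both IgG IP libraries and overlapped Input. The log2 fold change against the IgG IPs was -1.16 ± 0.47 (SE) and did not pass (edgeR adjusted p = 0.137), and against Input it was -0.12 (95% interval -1.15 to 0.92, edgeR adjusted p = 0.928). Within this complex the fold changes against the IgG IPs thus had opposite signs, and that of NHP2 passed the test. NHP2 had 1.11 and 2.80 counts per DKC1 count in the LARP1 IPs, against 0.0875 and 0.288 in the IgG IPs and 0.368 and 0.25 in Input. The geometric mean of the ratio was 11.1-fold higher in the LARP1 IPs than in the IgG IPs and 5.82-fold higher than in Input. Again the LARP1 IPs overlapped neither control.

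NPM1 is a histone chaperone and scaffold of the outer nucleolus. NPM1 (ENSG00000181163.13, chromosome 5, 171387116 to 171410900) had 490.1 and 323 CPM in the LARP1 IPs, against 166 and 131 CPM in the IgG IPs and 193 and 188 CPM in Input. The lower LARP1 IP library still lay above all 4 control libraries. Mean levels were 407 ± 118 CPM in the LARP1 IPs, 148 ± 24.7 CPM in the IgG IPs and 190 ± 3.59 CPM in Input (SD, n = 2 each). NPM1 was 2.74-fold higher than in the IgG IPs (log2 fold change 1.46 ± 0.40, SE; edgeR adjusted p = 0.0325). It was 2.14-fold above Input, where it did not pass (log2 fold change 1.10 ± 0.40, SE; edgeR adjusted p = 0.13; DESeq2 adjusted p = 0.0926). NPM1 ranked 1128 of 10788 genes by fold change against the IgG IPs and 1552 against Input, so many genes had larger ones.

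The call for NPM1 against the IgG IPs was close to the threshold. It was lost in the fit of the 4 libraries compared (edgeR adjusted p = 0.0783) and without LARP1 IP replicate 1 (0.118), IgG IP replicate 1 (0.0879) or 2 (0.133), or Input replicate 1 (0.0775) or 2 (0.0859). Its log2 fold change stayed between 1.10 and 1.75 with each library left out in turn, and DESeq2 on all libraries gave an adjusted p of 0.00451, but 0.0984 without LARP1 IP replicate 1 and 0.102 without IgG IP replicate 2. Against Input, DESeq2 without LARP1 IP replicate 2 called NPM1 higher (log2 fold change 1.37, adjusted p = 0.0381). The RefSeq table lists 50 pseudogenes named after NPM1, against at most 3 for any other member, and the treatment of reads that match several places is not given in the sources used here, so the NPM1 counts may be shared with such copies.

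NCL, nucleolin, is an abundant nucleolar RNA-binding protein. NCL (ENSG00000115053.15, chromosome 2, 231453531 to 231464484) had 93.9 and 28.1 CPM in the LARP1 IPs, against 218 and 50.4 CPM in the IgG IPs and 91.9 and 40.7 CPM in Input. Replicate 1 was more than 2-fold above replicate 2 in every group, and the groups overlapped. The log2 fold change was -1.13 against the IgG IPs (95% interval -2.58 to 0.31, edgeR adjusted p = 0.321) and -0.11 against Input (-1.56 to 1.33, edgeR adjusted p = 0.954). Without IgG IP replicate 1 the log2 fold change against the IgG IPs was 0.29 (edgeR adjusted p = 0.877). Without LARP1 IP replicate 1 (-2.26, edgeR adjusted p = 0.0497) or IgG IP replicate 2 (-1.78, edgeR adjusted p = 0.0356) NCL passed as lower by edgeR, while DESeq2 did not call it in the same settings (-2.29, adjusted p = 0.269, and -1.84, adjusted p = 0.451).

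GNL3, nucleostemin, is a nucleolar GTPase needed for the large subunit. GNL3 (ENSG00000163938.16, chromosome 3, 52685920 to 52694497) had 42.7 and 17.1 CPM in the LARP1 IPs, 69.5 and 36.2 CPM in the IgG IPs, and 42.9 and 25.8 CPM in Input. The groups overlapped, and the log2 fold change was -0.81 against the IgG IPs (95% interval -1.89 to 0.26, edgeR adjusted p = 0.339) and -0.19 against Input (-1.28 to 0.90, edgeR adjusted p = 0.877). In the annotation GNL3 overlaps GLT8D1, and without the strand setting reads of the overlap cannot be assigned here. The levels of NPM1, NCL, NOP58, DKC1 and GNL3 were higher in replicate 1 than in replicate 2 in all 3 groups, whereas those of FBL and NHP2 were higher in replicate 2 of the LARP1 IPs.

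Against Input, 2 of the 8 mRNAs were higher in the LARP1 IPs (25%), FBL and NHP2, beside 4.63% of all tested genes higher and 1.52% lower. By edgeR 0 members were lower. At an unadjusted edgeR p under 0.05, 3 members were higher, FBL, NHP2 and NPM1, and 0 lower. DESeq2 called 2 members higher and 0 lower, beside 526 and 184 of all genes. Over all tested genes, 2261 had an unadjusted edgeR p under 0.05 in either direction. FBL and NHP2 were also the members higher than both controls, a call that 4.37% of all tested genes shared, and 0 members were lower than both, beside 0.565%. Counted by libraries that do not overlap, 3 members were higher than the IgG IPs and 1 lower, beside 27.3% and 25.9% of all tested genes, and 3 were higher than Input and 0 lower, beside 28.8% and 22.8%. A lack of overlap between 2 libraries and 2 was therefore common in these data. The share of all tested genes with both LARP1 IP libraries above every control library was not counted. The median log2 fold change of the 8 against Input was 0.043, against 0.033 for all tested genes.

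**Figure D3:**
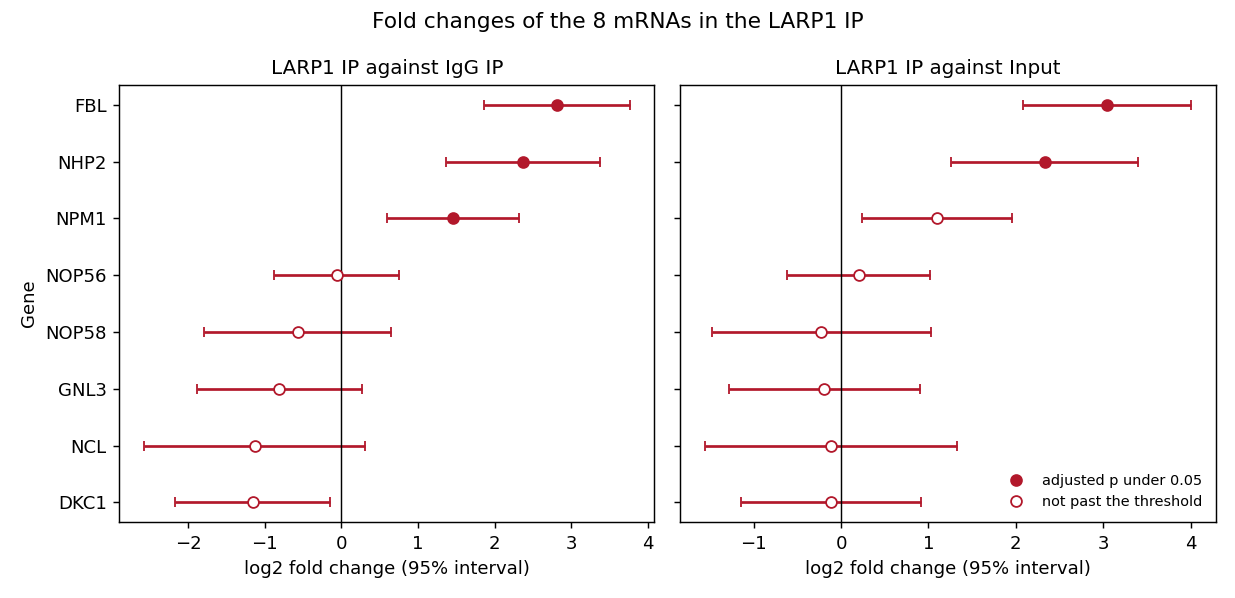
Log2 fold change of each mRNA in the LARP1 IPs against the IgG IPs (left) and against Input (right), with 95% intervals from edgeR's quasi-likelihood fit (filled: adjusted p under 0.05; open: not past the threshold). FBL and NHP2 are filled in both panels, NPM1 only against the IgG IPs, and the intervals of the other 5 cross 0 except that of DKC1 against the IgG IPs.

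**Figure D4:**
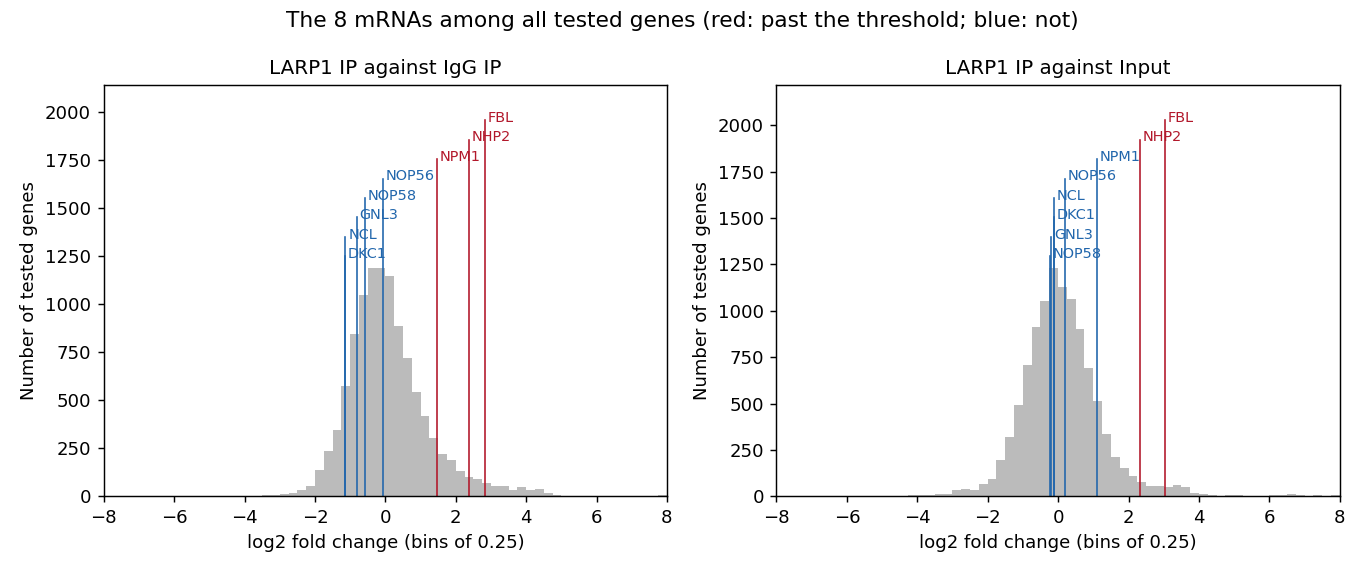
Number of the 10788 tested genes in each bin of log2 fold change (grey), with a line at the value of each of the 8 mRNAs (red: past the threshold; blue: not). Against the IgG IPs FBL, NHP2 and NPM1 stand to the right at ranks 339, 503 and 1128 from the highest, and NCL and DKC1 stand about as far to the left as NPM1 to the right, at ranks 9735 and 9788.

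In the makeup of the counts of the 8 mRNAs, which needs no scaling, FBL and NHP2 took larger shares in the LARP1 IPs than in any control library. These are shares of a fixed total, so a larger FBL share lowers the shares of the others. FBL took 36.6% (exact 95% binomial interval 35.9% to 37.4%) and 52.9% (51.8% to 54.0%) of them in the LARP1 IPs. In the controls FBL took 12.2% (11.6% to 12.9%) and 11.8% (11.1% to 12.6%) of the IgG IP counts and 13.1% (11.8% to 14.5%) and 11.4% (9.98% to 12.9%) of the Input counts. These intervals cover counting error only, and the 2 LARP1 IP libraries differed by more than it. NHP2 took 1.33% and 2.1% in the LARP1 IPs, 0.427% and 0.916% in the IgG IPs, and 0.908% and 0.597% in Input. NOP56 took 19.2% and 19.4% in the LARP1 IPs, 31.2% and 49.0% in the IgG IPs, and 38.2% and 38.6% in Input. This lower share stands beside NOP56 levels in CPM that overlapped both controls. The NPM1 share was 31.3% and 21.3% in the LARP1 IPs, 17.4% and 19.8% in the IgG IPs, and 24.8% and 32.8% in Input, so it overlapped Input. As a whole the 8 genes took 0.390% and 0.2501% of the counts that the 2 most abundant genes left in the LARP1 IPs, 0.481% and 0.290% in the IgG IPs, and 0.307% and 0.237% in Input, with the groups overlapping.

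**Figure D5:**
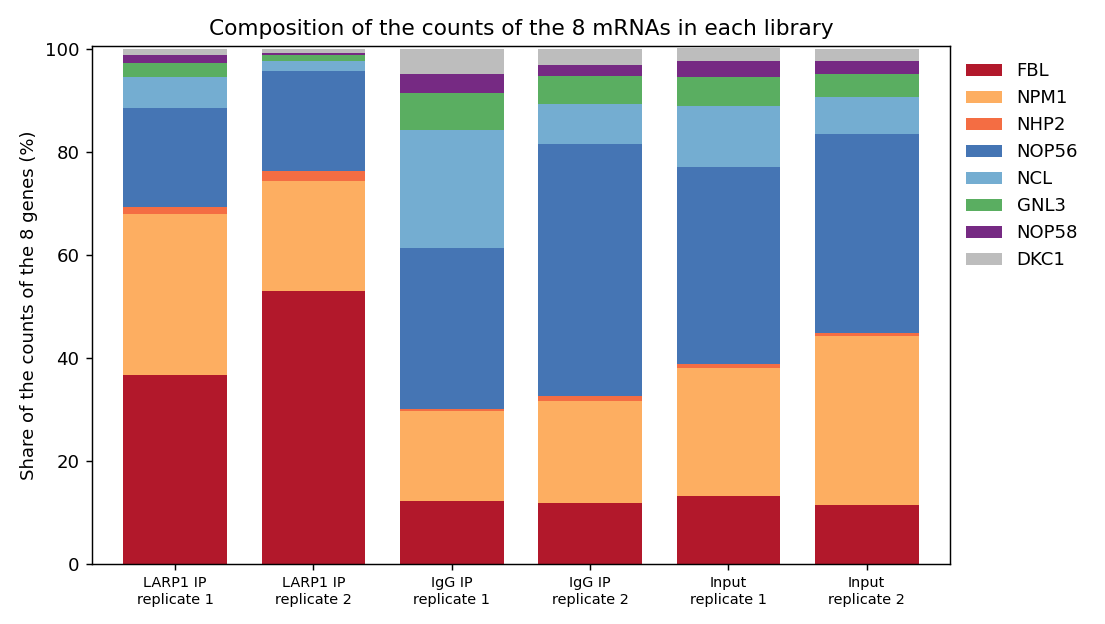
Share of the counts of the 8 mRNAs that each of them took in every library, in percent (stacked bars, 1 library a bar). The FBL segment is 36.6% and 52.9% in the LARP1 IPs and lies between 11.4% and 13.1% in the 4 control libraries.

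Set against its contrast, NPM1 had 7.20 and 7.39 counts per count of the geometric mean of the other 7 in the LARP1 IPs, 2.68 and 3.59 in the IgG IPs, and 4.26 and 6.94 in Input. The LARP1 IP values lay above both controls, but the higher Input library came close to them. The ratio was 2.35-fold higher than in the IgG IPs (log2 difference 1.23) and 1.34-fold higher than in Input (0.42), where the difference fell to 0.071 on the log2 scale without Input replicate 1. The comparison depended on which genes stood for the contrast: without FBL the log2 differences were 1.67 and 0.83, and with the median of the other 7 in place of the mean they were 1.97 and 1.01. FBL was itself higher relative to NPM1 in the LARP1 IPs, with 1.17 and 2.48 FBL counts per NPM1 count, against 0.703 and 0.599 in the IgG IPs and 0.528 and 0.348 in Input. FBL also had the run of a C and pyrimidines at its annotated first base, so the contrast was not free of such starts.

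A feature of the genes that was not among the planned comparisons ran along the same division. In the RefSeq annotation 5 of the 8 genes hold snoRNA genes within their span: NCL holds SNORA75, SNORD20 and SNORD82, and NOP56 holds SNORA51, SNORD110, SNORD56, SNORD57 and SNORD86. NOP58 holds SNORD11, SNORD11B, SNORD70 and SNORD70B, DKC1 holds SNORA36A and SNORA56, and GNL3 holds SNORD136, SNORD19, SNORD19B, SNORD19C and SNORD69. The 3 genes with none are NPM1, FBL and NHP2, the same genes that were higher in the LARP1 IPs than in the IgG IPs. The match is with the calls of that comparison in the main fit, where NPM1 was close to the threshold. Against Input NPM1 did not pass (edgeR adjusted p = 0.13). With library sizes counted without the 2 most abundant genes, only FBL was higher than in the IgG IPs. Among all 20056 protein-coding genes that RefSeq lists, 2.62% hold a snoRNA gene. The libraries were made without poly(A) selection, so snoRNAs could enter them, and how reads at these nested genes were counted is not given in the sources used here. The part of such reads in the result was not tested, and with 8 genes chosen by name the match is a description.

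A last comparison, of the IgG IPs over Input, asked what the control serum recovered. By edgeR 0 of the 8 mRNAs passed in either direction, as did 0% of all tested genes, with 1 member (DKC1) and 725 of all genes at an unadjusted p under 0.05. DESeq2 called 0 of the 8, and over all genes 20 higher and 17 lower. DKC1 had the largest log2 fold change, 1.04 ± 0.48 (SE; edgeR adjusted p = 0.737), with both IgG IP libraries above both Input libraries. NCL followed at 1.02 ± 0.68 (SE; edgeR adjusted p = 0.82) with overlapping libraries. FBL, at 0.22 ± 0.42, and NHP2, at -0.04 ± 0.50 (SE; edgeR adjusted p = 0.951 and 1), had overlapping libraries here. NPM1 had -0.36 ± 0.39 (SE; edgeR adjusted p = 0.905), with both IgG IP libraries below both Input libraries. Counted by libraries that do not overlap, 2 members were higher, DKC1 and NOP56, and 1 was lower, NPM1. Of all tested genes 19.2% were higher and 19.3% lower by this count.

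Among the 3065 genes that averaged 10 CPM or more, the IDs nearest to NPM1 over the 6 libraries, by Euclidean distance of centred log2 CPM, were ENSG00000137876.9 (distance 0.33) and ENSG00000101856.9 (0.35). Their log2 fold changes over the IgG IPs were 1.35 and 1.30 (edgeR adjusted p = 0.0443 and 0.057), and over Input 1.19 and 0.83 (0.106 and 0.277). They were picked for their likeness to NPM1 over the same libraries, so similar fold changes follow from the choice. None of the other 7 members was close to NPM1 by this measure: the nearest, NOP56 at 1.61, ranked 1193, followed by NHP2 at 1.796 (rank 1481), and NCL was farthest at 2.98 (rank 2760).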

How the data were processed

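The authors deposited 1 file of raw counts for each library, by Ensembl gene ID and without normalization. Build GRCh38 and the tools featureCounts, Subread 1.20.6, TopHat2 2.1.1, Bowtie2 and CASAVA 1.8 are listed in the submitters' processing notes. Per the labels' protocols, libraries came from a stranded kit with poly(A) selection omitted. Not given in the sources used here are the strand setting, the annotation used and the rule for multi-mapping reads.

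The 8 members were matched by Ensembl ID, with symbols taken from the definition of the set. Members and lists were chosen with earlier results of these data known. All 8 members are named. For NPM1 the 2 nearest IDs among genes of at least 10 CPM are added. Planned lists of other assembly factors, TOP mRNAs and cell markers were not applied to the counts, since no table used here pairs IDs with symbols.

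Genes were kept by filterByExpr (minimum count 10), scaled by TMM and fitted with edgeR 4.0.16 in R 4.3.3, all 6 libraries in 1 quasi-likelihood fit with group as the only term. Calls needed an adjusted p (Benjamini-Hochberg) under 0.05 over all 10788 tested genes. Each SE was taken as the absolute log2 fold change over the square root of its F statistic. All 8 members exceeded the filter's level in every library. The fit was tested on simulated data, in which a gene had the same mean in all groups apart from changes set in the LARP1 IPs. The unequal shares that the most abundant genes took in the groups were not part of that simulation. Alternatives were DESeq2 1.42.0, other scalings and filters, 4-library fits, a replicate block and each library left out. Counts within a group differed by 4.79 to 33.45 times sampling noise (chi-square per degree of freedom), so no library duplicated another.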

Additional observations from a re-analysis of the deposited data

How the results depend on the processing

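DESeq2 without each library and the ratios within complexes were added after seeing the data, and the look at snoRNA genes was not planned. FBL against the IgG IPs kept its call under every alternative. Library size without the 2 most abundant genes moved the median of all genes to -1.25 against the IgG IPs and -0.94 against Input. It left 1 member higher (FBL) in either comparison, beside 355 of all tested genes against the IgG IPs and 183 against Input. It made 4 lower than the IgG IPs (NCL, NOP56, DKC1 and GNL3), beside 4094 of all tested genes. It also turned NOP56 against Input to -0.77 and NHP2 in the IgG IPs against Input to 0.16. Total counts moved the medians to 0.15, 1.75 and, for the IgG IPs against Input, 1.51. They gave 6 members higher than Input in the LARP1 IPs and 8 in the IgG IPs, beside 6566 and 5816 of all 10788 tested genes. They turned NOP56 against the IgG IPs to 0.15, and NCL, NOP58, DKC1 and GNL3 against Input to 1.76, 1.63, 1.67 and 1.64. NPM1 and NHP2 in the IgG IPs against Input turned to 1.18 and 1.47. Without a low-count filter NCL and DKC1 against Input became 0.076 and 0.056, and NHP2 in the IgG IPs against Input 0.11.

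Leaving out 1 library, by edgeR or DESeq2, gave 2 to 3 members higher and 0 to 1 lower against the IgG IPs, and 0 to 2 higher against Input, where edgeR had 0 without either Input library and DESeq2 1 without Input replicate 2. Log2 fold changes against the IgG IPs that changed sign ran from -2.29 to 0.29 for NCL, -0.13 to 0.016 for NOP56 and -1.76 to 0.21 for NOP58. Against Input they ran from -1.29 to 0.65 for NCL, -0.074 to 0.45 for NOP56, -1.44 to 0.40 for NOP58, -0.57 to 0.21 for DKC1 and -1.05 to 0.33 for GNL3. For the IgG IPs against Input they ran from -0.45 to 1.73 for NCL, -0.15 to 0.57 for FBL, -0.49 to 0.82 for NOP58 and -0.54 to 0.54 for NHP2. None of these 12 passed in the fit of all libraries.

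NPM1 relative to the other 7 had a log2 difference of 1.97 against the IgG IPs and 1.01 against Input with their median, 1.67 and 0.83 without FBL, and against the IgG IPs 1.60 without NHP2 and 1.02 without DKC1. Single libraries left out gave 1.02 to 1.45 and 0.071 to 0.78.

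Under a replicate block, fitted by replicate number, 3 members stayed higher and 2 became lower against the IgG IPs, NCL (-1.05, edgeR adjusted p = 0.0372) and DKC1 (-1.12, edgeR adjusted p = 0.0188), and no other member's call changed. Over all genes 1526 were then higher and 909 lower against the IgG IPs, in place of 921 and 247, and 1083 and 551 against Input, in place of 499 and 164. Deviations of same-numbered libraries correlated at 0.65 (LARP1 IP and IgG IP), 0.143 (LARP1 IP and Input) and 0.342 (IgG IP and Input), a hint from the data only, since the labels name no shared batch. Over all genes other counts moved by over 1.5 times too: against the IgG IPs, library size without the 2 genes gave 355 higher and 4094 lower, total counts 75 lower and the 4-library fit 80 lower. Against Input total counts gave 6566 and 27, library size without the 2 genes 183 and 1168, and no filter 821 higher. For the IgG IPs against Input, in place of 0 and 0, total counts gave 5816 and 6, the block 39 and 35, no filter 56 and 17, DESeq2 20 and 17, the 4-library fit 5 and 8, and library size without the 2 genes 0 and 2. Leaving out 1 library gave 404 to 977 higher and 58 to 307 lower against the IgG IPs, 0 to 723 and 0 to 279 against Input, and 0 to 41 and 0 to 22 for the IgG IPs against Input. Apart from construction, the cause was not tested. Input had the fewest counts, down to 11 in a library for NHP2.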
